A study of Homo sapiens with 6 samples.

Results

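PKM (ENSG00000067225) encodes the pyruvate kinase of most tissues, and its transcripts carry either exon 9, which makes the M1 enzyme, or exon 10, which makes M2. All exon bins listed under the PKM identifier were taken, which gave 65 of the 597973 bins in the count tables. An exon bin is a stretch of exon between neighbouring exon boundaries of an annotation in which all transcripts of a gene are overlaid. RNA was sequenced from HEK293, an established human embryonic kidney line, in 3 libraries labelled WT and 3 labelled MUL1(-/-), in which the gene for the mitochondrial E3 ubiquitin ligase MUL1 was inactivated with CRISPR-Cas9. Both genotypes were grown in the same serum-supplemented DMEM, and no other treatment is given for either. The sources used here do not say whether the libraries came from a single clone or whether the 3 libraries of a genotype were separate cultures. The p-values therefore rest on the spread between these libraries, which may be technical.

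Pyruvate kinase converts phosphoenolpyruvate and ADP to pyruvate and ATP in the last step of glycolysis. The M1 form is constitutively active and is typical of skeletal muscle and brain, whereas M2 is allosterically regulated and is typical of embryonic tissue, proliferating cells and tumour lines. Exons 9 and 10 are mutually exclusive. In proliferating cells the splicing repressors PTBP1, HNRNPA1 and HNRNPA2B1 bind around exon 9 and keep it out of the transcript, and SRSF3 favours exon 10.

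In GRCh38 the gene lies on the minus strand of chromosome 15 between 72199029 and 72231822. Of its 25 transcripts in GENCODE 29, 6 have exon 9 and 4 have exon 10 with exactly the boundaries given below, and 0 have both. Longer or shorter exons also cover them. The exon 9 bin lay within 8 transcripts and the exon 10 bins within 7 and 6, and a retained-intron transcript spans both exons. Exon 9 (chr15:72203022-72203188) and exon 10 (chr15:72202454-72202620) are both coding and both 167 bases long, so either choice leaves a coding sequence of 1593 bases. The 2 exons are shown 5′ to 3′ on the transcript strand, read from GENCODE 29 transcripts, because the whole comparison depends on reads of one being told apart from reads of the other. Capitals mark the bases at which they differ.
exon 9: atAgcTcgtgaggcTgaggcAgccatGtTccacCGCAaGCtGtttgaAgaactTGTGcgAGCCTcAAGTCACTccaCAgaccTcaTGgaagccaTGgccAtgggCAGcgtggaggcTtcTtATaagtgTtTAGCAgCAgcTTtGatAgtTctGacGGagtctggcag
exon 10: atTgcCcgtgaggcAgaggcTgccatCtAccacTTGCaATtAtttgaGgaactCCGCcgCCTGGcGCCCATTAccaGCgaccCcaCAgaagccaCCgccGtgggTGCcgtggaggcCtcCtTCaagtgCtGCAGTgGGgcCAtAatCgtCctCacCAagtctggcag
The exons differed at 62 of 167 bases, so that 62.9% were identical, and the longest identical run was 10 bases. The pair begins after 380 complete codons, and 39 of the 56 codons that start in it differed between the exons, of which 22 changed the amino acid. GC content was 53.3% in exon 9 and 61.1% in exon 10.

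The 50 intronic bases on each side of both exons are shown because the known repressors of exon 9 act through short motifs there. Capitals mark TCTT, the pyrimidine motif recognised by PTBP1, and TAGGG, the motif recognised by HNRNPA1. Both were searched on the transcript strand alone and do not overlap each other.
upstream of exon 9 (chr15:72203189-72203238): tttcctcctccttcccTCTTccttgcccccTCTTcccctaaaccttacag
downstream of exon 9 (chr15:72202972-72203021): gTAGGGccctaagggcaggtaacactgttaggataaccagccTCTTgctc
upstream of exon 10 (chr15:72202621-72202670): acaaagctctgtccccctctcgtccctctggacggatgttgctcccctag
downstream of exon 10 (chr15:72202404-72202453): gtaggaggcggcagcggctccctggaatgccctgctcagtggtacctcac
Exon 9 had 2 TCTT matches upstream, and 1 TCTT and 1 TAGGG match downstream, while the windows of exon 10 held 0 of either. Among 4765 internal exons whose flanks could be read from retained-intron transcripts, TCTT occurred in 37.0% of upstream and 16.8% of downstream windows, and TAGGG in 2.10% and 6.27%. These matches describe letters in the windows and do not show binding.

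The deposited values were raw counts. How reads that span several bins were counted is not stated and was inferred from the tables, where short bins held about as many counts as longer neighbours. In exon 8, for example, bins of 26, 56 and 71 bases held 10495, 10472 and 9509 counts in WT replicate 1. A read was therefore taken to count in each bin it touches. Counts over all bins totalled between 132849479 and 149317215 for WT, and between 127466071 and 128125459 for the MUL1(-/-) label. The targeted gene, MUL1 (ENSG00000090432), had 1962, 2146 and 2396 counts in WT libraries and 2366, 2084 and 2378 in libraries labelled MUL1(-/-). Its RNA level therefore did not check the labels (log2 fold change 0.14, SE 0.10, edgeR adjusted p = 0.302), since an edited gene can still be transcribed, and directions below refer to the labels. Of 9 embryonic kidney markers, 8 averaged at least 1 CPM (a count scaled to a fixed library size) and PAX8 averaged 0.0597 in WT and 0.105 in libraries labelled MUL1(-/-). In edgeR's test 4 of the 9 (PAX2, WT1, SIX2 and LHX1) were lower in libraries labelled MUL1(-/-), with log2 fold changes of -1.79, -1.52, -1.04 and -0.54 (adjusted p = 2.88e-06, 1.43e-06, 2.03e-05 and 0.00917), and 0 were higher, against 18.5% lower and 19.3% higher of all genes. Their summed level was 92.9 to 97.2 CPM in WT and 77.9 to 95.05 CPM with the MUL1(-/-) label, and their part in the exon 9 result was not tested. All CPM values in the text were scaled by TMM, which corrects library totals for composition.

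Of the 65 PKM bins, 33 made up the 12 exons of the M1 and M2 messages, 12 lay in introns that some transcripts retain and 20 belonged to alternative first or internal exons. Exon 9 was 1 bin and exon 10 was 2 bins, of 88 and 79 bases. For the exon 9 bin, the WT libraries held 604, 623 and 593 counts and the libraries labelled MUL1(-/-) held 1015, 927 and 931. Every library labelled MUL1(-/-) was above every WT library, and the gap between the groups was larger than the range within either. For the 88-base bin of exon 10, the counts were 10200, 10187 and 9452 in WT libraries and 10115, 9421 and 10052 in libraries labelled MUL1(-/-). For the 79-base bin they were 8465, 8496 and 7789 against 8459, 7907 and 8499. Both exon 10 bins overlapped fully between the genotypes.

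Exon 9 was a minor exon in both genotypes by its counts, and per base as well, although the bins compared differ in length. It held 3.63 ± 0.0909 counts per base (SD, n = 3) in WT libraries and 5.73 ± 0.298 in libraries labelled MUL1(-/-), while the 88-base bin of exon 10 held 113 ± 4.87 and 112 ± 4.36. M2 was therefore the main form under either label by the counts of the pair.

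The M1 share, the percentage of counts over exons 9 and 10 that fell in exon 9, was 3.13%, 3.23% and 3.33% in WT libraries. It was 5.18%, 5.08% and 4.78% in libraries labelled MUL1(-/-). The groups did not overlap, and the mean rose from 3.23% ± 0.0953 to 5.01% ± 0.209 (SD, n = 3), a difference of 1.78 percentage points or 1.55-fold (two-sided exact permutation test, p = 0.1, the lower limit for 3 libraries in each genotype). The 95% Wilson intervals of the single shares together spanned 2.90% to 3.60% for WT and 4.49% to 5.50% for the others, and these cover counting error only.

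If, as inferred, a read that touches both exon 10 bins counts in each, this share understates M1 per read. Taking the most counted bin of each exon instead, the share was 5.59%, 5.76% and 5.90% in WT libraries and 9.12%, 8.96% and 8.48% in libraries labelled MUL1(-/-). The means were 5.75% ± 0.157 and 8.85% ± 0.334, a difference of 3.10 percentage points and 1.54-fold (two-sided exact permutation test, p = 0.1). This version leaves out reads that touch the 79-base bin alone and so overstates M1, which under that counting places the share per read between the 2 versions. The absolute share thus depended on how exon 10 was counted, and the fold between genotypes did not.

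Reads of unspliced or intron-retaining RNA also fall in exon 9, so the adjoining intron bins were set beside it. The larger of the 2 bins of intron 9, 332 bases on the 3′ side of exon 9, held 313, 353 and 281 counts in WT libraries and 299, 245 and 267 in libraries labelled MUL1(-/-). The intron 8 bin, 1371 bases on its 5′ side, held 560, 602 and 570 counts against 518, 591 and 602. The counts of both bins overlapped between the genotypes, although as a share of PKM counts the 332-base bin was lower in each library labelled MUL1(-/-) (log2 usage change -0.24, edgeR adjusted p = 0.517).

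Per base, the values of these intron bins were higher in shorter bins. In WT libraries the intron 8 bin held 0.421 ± 0.0160 counts per base and the 332-base bin 0.951 ± 0.109 (SD, n = 3), below the 3.63 of exon 9, but the other bin of intron 9, 69 bases next to exon 10, held 3.99 ± 0.199, above it. If a read counts in each bin it touches, as inferred, counts per base run higher in shorter bins. Bins of unlike length therefore cannot be compared in density, and the 3.99 does not show more intron than exon 9 signal. In raw counts the 69-base bin held 272, 290 and 263 in WT libraries, below the 604, 623 and 593 of exon 9. Under the MUL1(-/-) label it held 265, 235 and 260, and its share of PKM counts was lower without overlap (log2 usage change -0.14, edgeR adjusted p = 1.00). There it held 3.67 ± 0.233 counts per base against 5.73 in exon 9, values that for the same reason cannot be ranked. None of the 3 intron bins was called in usage.

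Versions of the M1 share with intron signal taken off were added after the data were seen and start from the most counted bins. With the count per base of the 332-base bin taken from each exon bin, the share was 4.23%, 4.23% and 4.60% in WT libraries and 7.93%, 7.91% and 7.39% in libraries labelled MUL1(-/-), a difference of 3.40 percentage points and 1.78-fold (two-sided exact permutation test, p = 0.1). Under the inferred counting shorter bins hold more counts per base, so this version may take too little from the exon bins. With the whole count of the 332-base bin taken off, more than its length relative to exon 9 would give, the difference was 3.75 percentage points and 2.28-fold. A ratio of shares grows by construction when a similar count is taken from both groups, so the larger folds are no added support, and the part of intron-containing RNA in the exon 9 result was not tested beyond these values.

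**Figure D1:**
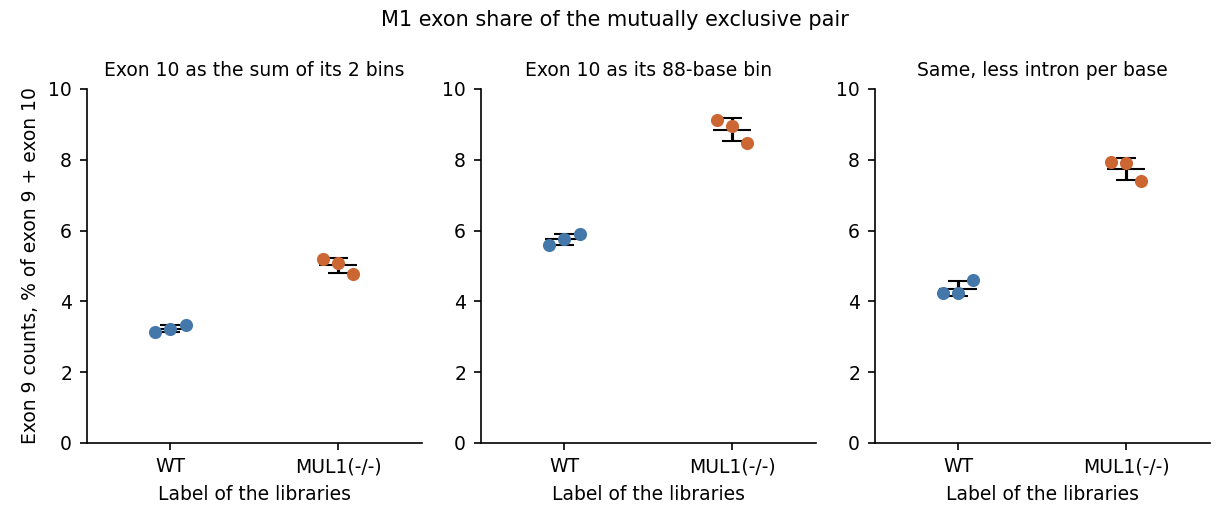
Exon 9 counts as a percentage of exon 9 plus exon 10 counts (y axis) in each library, by label (x axis), with exon 10 as the sum of its 2 bins, as its 88-base bin, and as that bin with the count per base of the 332-base bin of intron 9 taken off both exons. Points are libraries, long bars are means and short caps are 1 SD (n = 3), and in all 3 versions the libraries labelled MUL1(-/-) lie above all WT libraries.

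**Figure D2:**
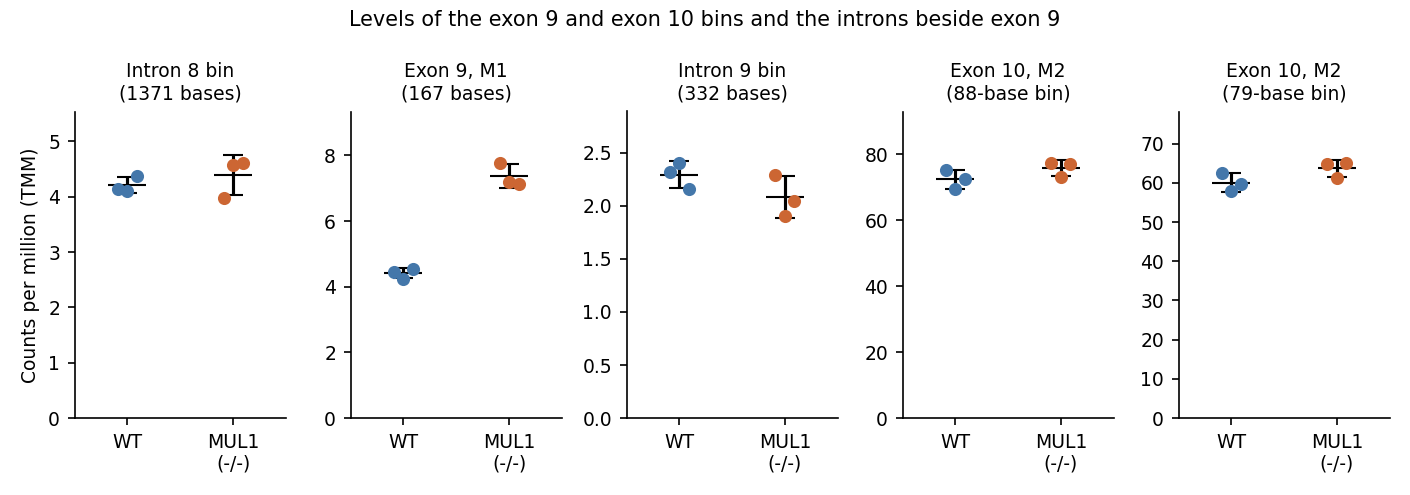
TMM-scaled CPM (y axis, each panel on its own scale from 0) of the exon 9 bin, both exon 10 bins and the intron bins beside exon 9, by label (x axis). Points are libraries, with mean and SD (n = 3), and exon 9 is the panel in which the groups stand apart, at a mean of 4.42 in WT and 7.37 in libraries labelled MUL1(-/-).

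Bin usage, the change of a bin relative to the change of its whole gene, was tested with edgeR over 324742 bins of all genes, with Benjamini-Hochberg adjustment over all of them. This test pools the spread between libraries over the bins of a gene. Bins that share reads, as inferred, are not independent, so its p-values may be too small. Of the 65 PKM bins, 62 passed the filter on low counts, and 3 alternative exon bins with at most 16 counts in any library did not. Among the 62, 1 bin was called at an adjusted p under 0.05, and it was exon 9, with a log2 usage change of 0.63 (SE 0.07, adjusted p = 4.74e-08). Called bins made up 1.97% of all bins tested and 1.61% of the PKM bins, so the share called in PKM was near that of the whole table. A usage change at least as large in either direction was found for 14042 bins, of which 4309 were called, and 563 bins had a smaller p than exon 9.

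Relative to the gene, exon 10 did not pass the test. Its 88-base bin had a log2 usage change of -0.04 (SE 0.07) and its 79-base bin one of -0.02 (SE 0.07), both with edgeR adjusted p = 1.00. As levels rather than usage, exon 9 rose by a log2 fold change of 0.74 (SE 0.08, edgeR adjusted p = 4.38e-07), and the exon 10 bins had values of 0.07 (SE 0.07) and 0.09 (SE 0.07), with adjusted p = 0.521 and 0.397. In the test of bin levels 30.2% of all bins were called, against 1 PKM bin.

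The other 61 tested bins of PKM had no usage call, and the smallest adjusted p among them was 0.452. The 32 other bins of the 12 exons lay between -0.13 and 0.04 on the log2 usage scale. The constitutive exons thus moved together within a narrow band around the gene. Alternative exon bins were sparse, with 2 to 336 counts per library, and their 17 tested bins ranged from -0.54 to 0.55.

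Of the 12 retained-intron bins, 11 had a negative usage value, down to -0.57 for a 167-base bin of intron 4 with 16 to 46 counts per library (edgeR adjusted p = 0.452). Summed, the retained-intron bins took 1.25%, 1.29% and 1.15% of PKM counts in WT libraries and 1.11%, 1.11% and 1.11% in libraries labelled MUL1(-/-). The groups did not overlap, though the lowest WT library was close to the others (two-sided exact permutation test, p = 0.1). Over single bins, 9 of 62 (14.5%) had shares of PKM counts that did not overlap between the genotypes, against 17.9% of all bins tested.

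**Figure D3:**
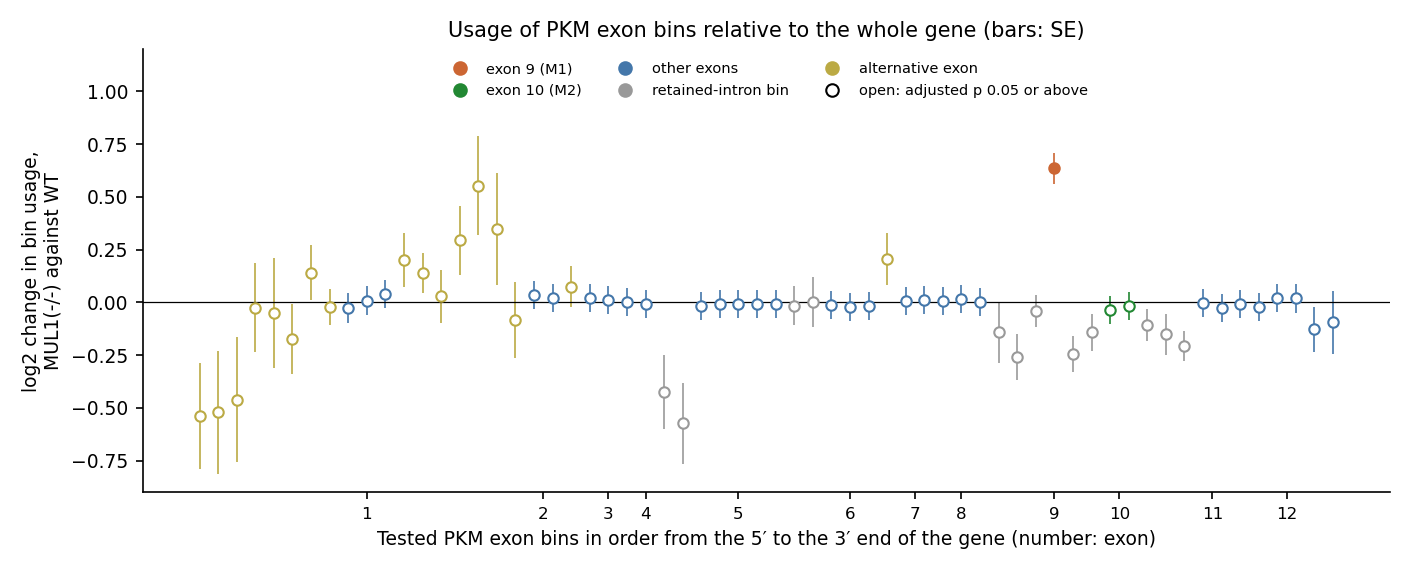
log2 usage change (y axis, MUL1(-/-) against WT, bars are SE) of the 62 tested PKM bins in order along the gene (x axis, numbers are exons). Exon 9 is the filled point at 0.63, exon 10 lies near 0, and open points did not pass the test.

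As a share of all PKM counts, exon 9 took 0.220%, 0.216% and 0.222% in WT libraries and 0.351%, 0.337% and 0.334% in libraries labelled MUL1(-/-). The means were 0.219% ± 0.00326 and 0.340% ± 0.00910 (SD, n = 3), a difference of 0.121 percentage points (two-sided exact permutation test, p = 0.1). Exon 10 took 6.80%, 6.47% and 6.46% against 6.42%, 6.29% and 6.65%, with means of 6.57% ± 0.194 and 6.45% ± 0.181 (two-sided exact permutation test, p = 0.5). The difference of the exon 10 means was -0.122 percentage points, smaller than the spread of exon 10 between libraries, and it moved between -0.0098 (without WT replicate 1), -0.041 (without MUL1(-/-) replicate 2) and -0.220 (without MUL1(-/-) replicate 3). A loss from exon 10 matching the gain of exon 9 was therefore not detectable at this spread.

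If each message carries either exon, the pair together should be read about as often as its neighbours. The most counted bins of exons 9 and 10 summed to 105%, 102% and 104% of the mean of exons 8 and 11 in WT, and with the MUL1(-/-) label to 105%, 103% and 106%. These groups overlapped (two-sided exact permutation test, p = 0.6). The bins compared differed in length, and exon 9 was a small part of the pair. A change of exon 9 alone could therefore hardly show in this sum.

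Among the other exons, exon 2 was the only one whose shares did not overlap, with 6.31%, 6.27% and 6.31% of PKM counts in WT libraries and 6.45%, 6.36% and 6.46% in libraries labelled MUL1(-/-). That is a ratio of 1.02, far below the 1.55 of exon 9. Exons other than 2, 9 and 10 had ratios of 0.987 to 1.02 and overlapped.

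**Figure D4:**
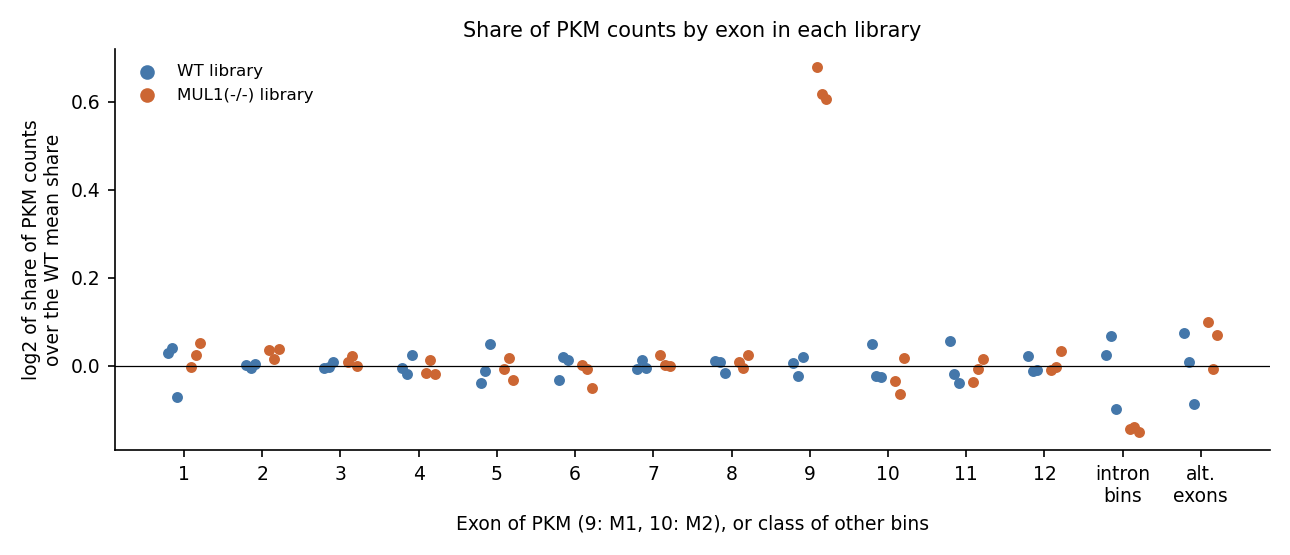
log2 of each exon's share of PKM counts over its WT mean share (y axis) for the 12 exons, the retained-intron bins and the alternative exons (x axis), in each library. Exon 9 of the libraries labelled MUL1(-/-) stands above 0.6, while all points of the other 11 exons lie near 0.

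The whole gene had 274552, 288843 and 267015 counts in WT libraries and 289422, 275405 and 279004 in libraries labelled MUL1(-/-). Scaled, the levels were 1957, 1871 and 1934 CPM against 2085, 2005 and 2080. The groups did not overlap, but the log2 fold change of 0.10 (SE 0.05) did not pass edgeR's test (adjusted p = 0.173), while 37.8% of 26060 genes did. Scaled by library totals alone it was 0.16, with an edgeR adjusted p of 0.0208. The change in the pair was thus a change within PKM whose total moved by little under either scaling.

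No annotated gene overlaps PKM on either strand. The nearest are GRAMD2A, whose nearest edge lies 1244 bases beyond the 3′ end of PKM, and PARP6, 9359 bases beyond the 5′ end. Of the 5 processed pseudogenes of PKM, whose reads could be exchanged with those of the gene, none had more than 35 counts in any library. PKLR, which encodes the liver and red cell pyruvate kinases, had 9 to 17 counts per library, so nearly all counts of pyruvate kinase genes fell in PKM.

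Markers of muscle, a tissue that uses M1, were low but were not equal between the groups. The summed level of the 5 muscle markers lay between 1.38 and 1.64 CPM in WT, against 2.66 to 3.45 CPM in libraries labelled MUL1(-/-), and CKM and ACTA1, 2 of 4 tested, rose while MYOG stayed too low to test. ACTA1 had 91, 65 and 95 counts in WT libraries against 275, 238 and 211 (log2 fold change 1.59, edgeR adjusted p = 2.00e-05). CKM, the muscle creatine kinase, had 13, 36 and 16 counts against 63, 42 and 40, and DES and MYH7 were not called. The 4 neuronal markers summed to 105 to 140 CPM against 90.2 to 123 CPM, with 1 called higher (NEFM) and 0 lower, and the 2 glial markers to 1.85 to 2.42 against 1.47 to 2.85. The 6 markers of blood, endothelium, fibroblasts and liver summed to 5.20 to 7.19 against 12.9 to 20.5, with 4 of 5 tested called higher. COL3A1 made up most of these sums, with means of 4.68 and 12.2 CPM. PTPRC and PECAM1, both called, had at most 52 and 35 counts in any library. CDH5, not tested, had 1 count in each WT library and 7, 9 and 0 in libraries labelled MUL1(-/-). For these calls, 19.3% of all genes were called higher. None of these markers was at 0 in all libraries, and their part in the exon 9 result was not tested.

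The genes known to act on the pair were described next, from a list of 19 splicing factors and upstream regulators, of which 18 could be tested and CTCFL could not. In edgeR's test 4 were higher and 3 lower, or 38.9% of those tested, close to the 37.8% of all genes (19.3% higher and 18.5% lower), with a median log2 fold change of 0.04 against -0.0013. The share called in this list was thus near that of the whole table.

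Of the repressors of exon 9, HNRNPA1 had 3804, 3619 and 3327 CPM in WT libraries and 2818, 2922 and 2450 CPM in libraries labelled MUL1(-/-). It fell without overlap (log2 fold change -0.39, SE 0.07, edgeR adjusted p = 6.85e-04). The call was kept without any single library, at values of -0.45 to -0.32 and adjusted p up to 0.00432. The level is uncertain because HNRNPA1 has many near-identical pseudogenes between which reads may be split. PTBP1, the polypyrimidine tract binding protein, had 835, 790 and 690 CPM against 655, 634 and 786, and the groups overlapped (log2 fold change -0.16, SE 0.09, adjusted p = 0.176). Without WT replicate 3 or without MUL1(-/-) replicate 3 it passed the test, at -0.24 (adjusted p = 0.0327) and -0.26 (adjusted p = 0.0159). HNRNPA2B1 had a value of 0.07 (adjusted p = 0.379). The 3 main repressors therefore differed in their values, with 1 called lower.

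PTBP2, the neuronal relative of PTBP1, had 27.8, 29.4 and 33.1 CPM in WT libraries and 32.1, 39.2 and 39.8 CPM in the others. It rose by a log2 fold change of 0.30 (edgeR adjusted p = 0.0230), with an overlap between the groups. Without WT replicate 1, WT replicate 2, MUL1(-/-) replicate 2 or MUL1(-/-) replicate 3 the call was lost, at values of 0.24 to 0.27 and adjusted p up to 0.118, as it was with the most counted bin of each gene (0.25, adjusted p = 0.0593). PTBP3 had a value of -0.18 (adjusted p = 0.112).

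SRSF3, the activator of exon 10, had 318, 310 and 346 CPM in WT libraries and 320, 333 and 435 CPM in libraries labelled MUL1(-/-), and did not pass the test (log2 fold change 0.16, SE 0.10, edgeR adjusted p = 0.222). SRSF1, a general splicing activator, rose by 0.29 (adjusted p = 0.0315), with 302, 299 and 297 CPM against 325, 330 and 444. Its highest library, MUL1(-/-) replicate 3, also led SRSF3 and SRSF2. The SRSF1 call was lost without that library (0.13, adjusted p = 0.145) and without any single WT library (0.27 to 0.29, adjusted p up to 0.0842).

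NEK2, a mitotic kinase described as favouring M2 splicing, had 29.6, 28.96 and 28.7 CPM in WT libraries and 46.4, 48.2 and 44.0 CPM in libraries labelled MUL1(-/-). It rose by a log2 fold change of 0.67 (SE 0.07, edgeR adjusted p = 6.07e-06). MYC, a transcription factor that raises the level of the 3 main repressors, had 274, 258 and 166 CPM against 126, 126 and 109 and fell by 0.95 on the log2 scale (SE 0.14, adjusted p = 1.02e-04). MYC and NEK2 were thus the list members with the largest changes, in opposite directions, and both kept their calls without any single library.

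CTCF, a DNA-binding factor linked to exon choice, rose by 0.26 (edgeR adjusted p = 0.0494). RBFOX2, a splicing factor, fell by 0.17 (adjusted p = 0.0438), and both were close to the threshold. The CTCF call was lost without WT replicate 1, WT replicate 2, MUL1(-/-) replicate 1 or MUL1(-/-) replicate 3, at values of 0.12 to 0.31. The RBFOX2 call was lost without WT replicate 1, WT replicate 2, MUL1(-/-) replicate 1 or MUL1(-/-) replicate 2, at values of -0.18 to -0.15. It was also lost with library totals (adjusted p = 0.155) or no filter on low counts (adjusted p = 0.144), and CTCF lost its call with the most counted bin of each gene (adjusted p = 0.229), RLE factors (adjusted p = 0.0507) or limma-voom (adjusted p = 0.0606). SRSF2, SRSF7, RBM4, RBM4B, KHDRBS1, HNRNPL and HNRNPK did not pass the test, with log2 fold changes between -0.08 and 0.16.

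**Figure D5:**
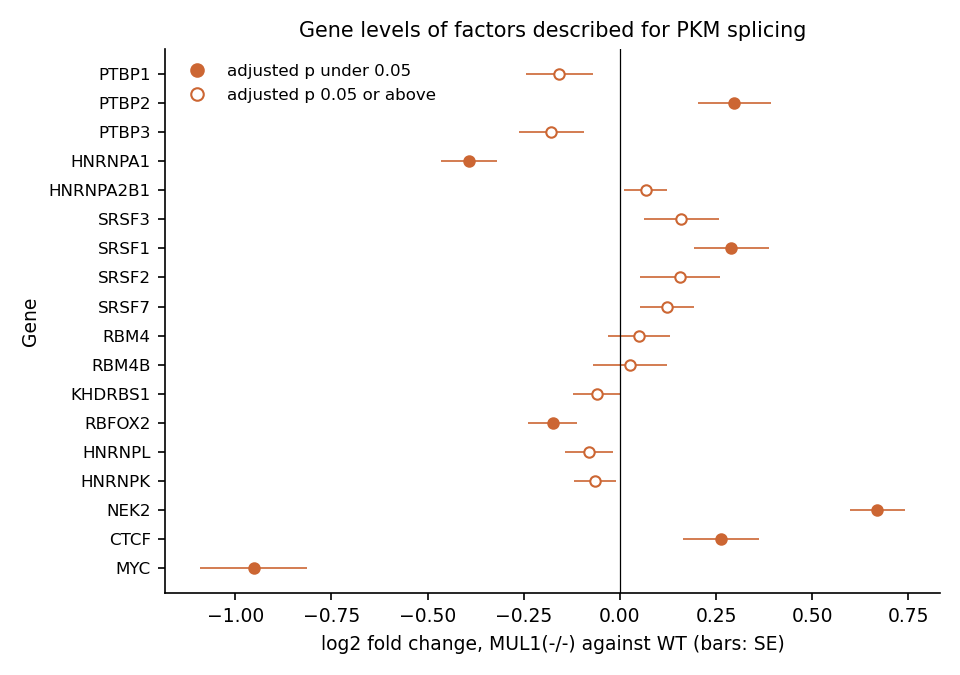
log2 fold change of the gene level (x axis, MUL1(-/-) against WT, bars are SE) of the 18 tested regulators of the list (y axis). Filled points passed edgeR's test at an adjusted p under 0.05, with MYC at -0.95 and NEK2 at 0.67 as the ends of the range.

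The enzymes around pyruvate kinase were taken from a list of 20 genes, all of which could be tested. In edgeR's test 4 were higher and 6 lower, or 50.0% against 37.8% of all genes, with a median log2 fold change of -0.05. On the side of the substrate, ENO1, the main enolase, fell from 2927, 2790 and 2746 CPM in WT libraries to 1793, 1694 and 1620 CPM in libraries labelled MUL1(-/-) (log2 fold change -0.73, SE 0.06, adjusted p = 6.06e-07). PGAM1, phosphoglycerate mutase, fell by 0.52 (adjusted p = 2.83e-05) and the neuronal enolase ENO2 by 1.07 (adjusted p = 7.76e-06), while the muscle enolase ENO3 rose by 0.41 (adjusted p = 2.40e-04). Of the genes listed for these steps, 3 thus fell and the isozyme ENO3 rose, whereas PKM itself did not pass the test.

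On the side of the product, the lactate dehydrogenases LDHA and LDHB had log2 fold changes of -0.10 (adjusted p = 0.220) and -0.13 (adjusted p = 0.0972), and LDHC, the testis form, fell from a mean of 4.13 to 0.900 CPM (log2 fold change -2.20, edgeR adjusted p = 3.81e-07). The phosphoenolpyruvate carboxykinases lead to the substrate instead. Of these, PCK2, the mitochondrial form, fell by 1.12 (adjusted p = 1.94e-05), and PCK1, the cytosolic form, rose by 0.95 (adjusted p = 3.46e-04) at a level of 1.27 CPM. Again on the side of the product, PDHA1, a pyruvate dehydrogenase subunit, fell by 0.20 (adjusted p = 0.0160). MPC2, a subunit of the mitochondrial pyruvate carrier, rose by 0.19 (adjusted p = 0.0315) and GPT, alanine aminotransferase, by 0.37 (adjusted p = 0.0291).

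Of these calls, 3 did not hold in every setting. The PDHA1 call was lost without WT replicate 1, MUL1(-/-) replicate 1 or MUL1(-/-) replicate 2, with adjusted p up to 0.0596, and with library totals (0.0624), no filter on low counts (0.0550) or the most counted bin of each gene (0.224). The MPC2 call was lost without WT replicate 1, WT replicate 2, MUL1(-/-) replicate 1 or MUL1(-/-) replicate 3, with adjusted p up to 0.153. The GPT call was lost without WT replicate 1, WT replicate 2 or MUL1(-/-) replicate 1, with adjusted p up to 0.167 and a value down to 0.22. PKLR, LDHA, LDHB, MPC1, PDHB, DLAT, PC, ME1, ME2 and GPT2 were not called.

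The genes whose level most resembled that of PKM over the 6 libraries, out of 16531 genes averaging 1 CPM or more, were AC129492.7, AES, RETREG3, AP001160.1 and CENPO. Their Pearson correlations of log2 CPM with PKM were 0.997, 0.996, 0.995, 0.994 and 0.992. All points share the same 6 libraries and their scaling, and PKM itself moved only between 10.87 and 11.03 on that scale, so this is a description of a small range.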

How the data were processed

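Raw, unnormalized counts of reads in exon bins were deposited for all 6 libraries. Per the labels, reads were trimmed with Trimmomatic 0.36 and aligned to GRCh38 with STAR 2.5.2b. The counting program is not given in the sources used here, and that a read counts in each bin it touches was inferred from the tables. The study compared genes with DESeq2.

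Bins were placed on exons with GENCODE 29. Gene counts were sums over bins, with bins of joined identifiers given to each member gene whose exons hold them, since the plan had assumed counts per gene. Genes, bin levels and bin usage (diffSpliceDGE) were tested with edgeR 4.0.16 in R 4.3.3 (quasi-likelihood fit, genotype as the model, TMM factors of 0.955 to 1.03 for genes, filterByExpr, Benjamini-Hochberg adjustment over all 26060 genes or 324742 bins, calls at an adjusted p under 0.05). Shares were compared with two-sided exact permutation tests over libraries (scipy 1.17.1). The bins of PKM, its regulators and the enzymes around it were named in full, as were MUL1, PKM pseudogenes and neighbours, cell type markers and the 5 most similar genes. The members and lists were chosen with earlier results of these data known. Each test across genes or bins was first run on simulated data. Simulated bins were drawn independently of each other, so these runs could not check the effect of reads shared between bins. Alternatives were RLE factors, library totals, other filters, DESeq2 1.42.0, limma 3.58.1, the replicate number as a block, each library left out, the most counted bin in place of sums and other denominators of shares. Taking off the intron count, whole or per base, was added after the data were seen. The chi-square over its degrees of freedom between replicates was 3.32 to 11.1, above sampling noise, so none was merged. Under that inferred rule sums over bins exceed the number of reads, and intervals cover counting error only.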

Additional observations from a re-analysis of the deposited data

How the results depend on the processing

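The exon 9 usage call was kept under all 12 alternatives, with log2 changes of 0.61 to 0.65 and adjusted p from 1.26e-13 to 5.68e-05, and it was the 1 PKM bin called in each of them. The share of all bins called ranged from 0.954% to 2.34%. The M1 share difference of 1.78 percentage points was 1.70 to 1.90 with 1 library left out (two-sided exact permutation test, p = 0.2, the smallest that 2 against 3 libraries can give). Among the share tests of exon 9 no setting could reach an adjusted threshold, so their p-values say nothing about stability. By library totals alone the PKM gene count had a log2 fold change of 0.16 (edgeR adjusted p = 0.0208) and 8 PKM bins were called by level in place of 1. Leaving out 1 library gave 1 to 2 bins called by level (2 without MUL1(-/-) replicate 2), 0.07 to 0.12 for the PKM gene, and 3 to 8 called regulators in place of 7 (3 without WT replicate 1 or without WT replicate 2). The usage value of the 79-base bin of exon 10, -0.02, ranged from -0.041 to 0.0086 and changed sign without WT replicate 1 (0.0086) or without MUL1(-/-) replicate 2 (0.0014), with no call in either. The difference in the exon 10 share, -0.122 percentage points, was -0.220 to -0.0098 with 1 library left out. The cause of these differences was not tested.

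Replicate numbers are shared between genotypes, but deviations of same-numbered libraries had correlations of only -0.16 to 0.02, so the numbers were not taken as pairs. With the replicate number as a block, exon 9 usage was 0.63 (edgeR adjusted p = 4.70e-08), the M1 share difference was 1.78 percentage points (exact sign-flip test, p = 0.25, the smallest 3 pairs can give), the PKM gene change was 0.10, and 6 regulators and 9 pyruvate genes were called in place of 7 and 10, RBFOX2 (adjusted p = 0.0577) and GPT (adjusted p = 0.0507) losing their calls.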
